A study of Homo sapiens with 4 samples.

Results

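The genes that build and cap glycan chains in T47D cells were examined, taken by a rule on gene symbols that was set with earlier results of these data known. A gene was a member when its symbol began with GALNT, B3GNT, B3GALT, B4GALT, ST3GAL, ST6GAL, ST8SIA or C1GALT1, or with FUT, MGAT or GCNT followed by a digit. This gave 88 members of the 23287 gene symbols in the RNA-seq tables, with 153 of the 41138 transcripts. T47D is an established human breast cancer cell line of luminal type that expresses the progesterone receptor (PR), and R5020 is a synthetic progestin that activates it. The cells were plated in RPMI with charcoal-stripped serum, which is depleted of steroids, 24 h before harvest for RNA and 3 days before harvest for ChIP. For RNA-seq, 1 library was made after 3 h with 10 nM R5020 and 1 after 3 h with the vehicle, ethanol (EtOH). A further library was made by PR ChIP-seq after 1 h with 10 nM R5020, and the input DNA library served as its control in the calling of binding sites. With 1 library per condition no difference below has a replicate check, and every comparison is between these libraries.

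Glycans are assembled in the endoplasmic reticulum and the Golgi by enzymes that each add 1 kind of sugar in 1 kind of linkage. Mucin-type O-glycans start with N-acetylgalactosamine on serine or threonine and are extended to core structures. N-glycans are transferred to asparagine as a whole, trimmed, and then rebuilt with antennae. Galactose, fucose and sialic acid are placed on the outer parts of both kinds of chain, and sialic acid usually ends the chain. Breast epithelium carries heavily O-glycosylated mucins such as MUC1, and shortened or sialylated O-glycans are a known feature of breast cancer cells.

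Levels are given as FPKM, fragments scaled to transcript length and library size, summed over the transcripts of a gene. The change of a gene is log2((FPKM in R5020 + 1) / (FPKM in EtOH + 1)), a scale that damps changes at low FPKM. A gene was retained when its FPKM reached 1 in either library, and it was called higher or lower at 1.5-fold on that scale, a log2 value of 0.58. The deposited coverage corresponded to 35055653 reads in EtOH and 36106319 in R5020 over the transcripts with an OK Cufflinks status. These totals are not the sequencing depth, for which the study reports more unique read pairs in EtOH than in R5020. The luminal markers ESR1, PGR, GATA3, KRT19 and EPCAM had FPKM between 10.9 and 608 in both libraries, and the basal markers KRT5, KRT14 and TP63 stayed under 0.24. These luminal markers were not all level. ESR1 (17.2 in EtOH and 10.9 in R5020), PGR (23.7 and 15.3) and GATA3 (253 and 126) were past 1.5-fold lower, and KRT19 and EPCAM were not. Of the stromal, endothelial and blood markers, COL1A1 stood at 5.12 and 3.31 FPKM, and VIM, PECAM1 and PTPRC stayed below the FPKM limit. KRT8 and KRT18 were listed at 0 in EtOH with a failed Cufflinks status. No transcript of a member had a failed status. In bulk RNA of this kind fewer expressing cells and less RNA per cell cannot be told apart.

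Of the 88 members, 40 were retained and 48 were not. Of these 48, 11 were listed at 0 in both libraries and 37 were detected below the FPKM limit, the highest being B3GALTL at 0.949 in EtOH. Among the retained members 2 of 40, or 5.0% (95% Wilson interval 1.38% to 16.5%, for counting error only), were at least 1.5-fold higher in R5020, namely ST3GAL4 and FUT4. None of the 40 was 1.5-fold lower, for which the interval reached 8.76%. Over all 11018 retained genes 7.67% were higher and 4.14% were lower, so the member counts were within counting error of the background. Genes with a failed status in a library, such as KRT8 and KRT18, were kept in this background and can count as changed. When the depth was expressed from the coverage in place of the FPKM, the background was 7.63% higher and 7.83% lower, and the members stood at 2 higher and 2 lower, FUT2 and MGAT1.

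By their medians the members' differences were close in size and direction to those of other genes, while the shares past 1.25-fold lay further apart. Their median log2 fold change was -0.0046, with 20 members above 0 and 20 below, and the median over all retained genes was 0.0053. The median size of the change without its sign was 0.203 for the members and 0.181 for all retained genes. At a smaller threshold of 1.25-fold 10 members (25.0%) were higher, against 15.5% of all genes, and 3 (7.5%) were lower, against 12.6%. The median FPKM of the retained members was 4.10 in EtOH and 4.35 in R5020, close to the 5.09 and 5.32 of all retained genes.

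**Figure D1:**
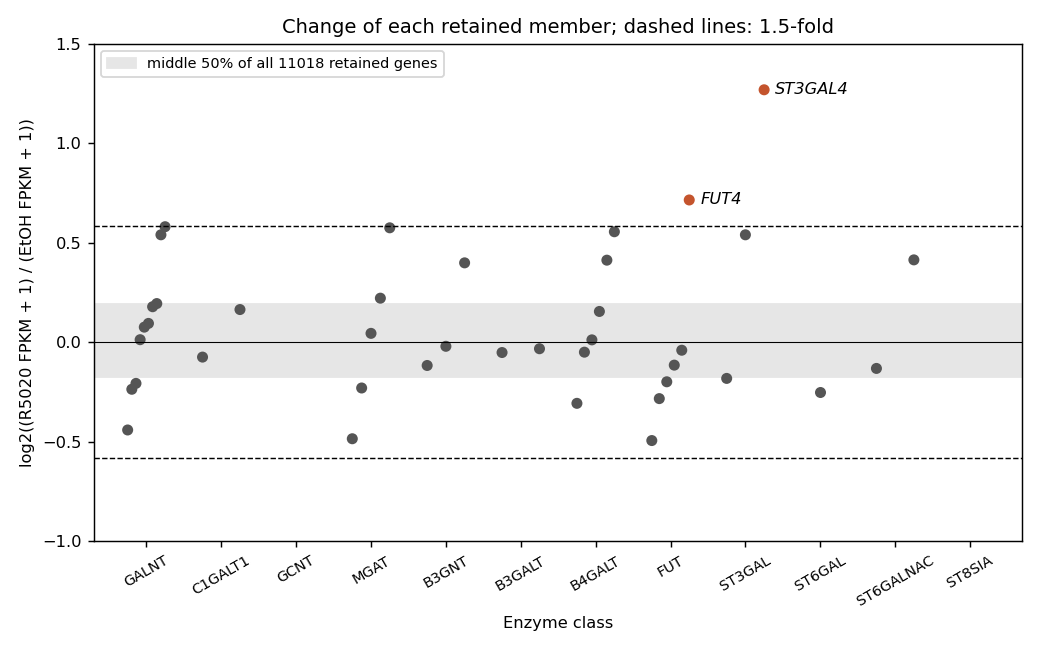
Change of each of the 40 retained members between the libraries, as log2((R5020 FPKM + 1) / (EtOH FPKM + 1)), by enzyme class on the x axis; each point is 1 gene from 1 library per condition. The grey band holds the middle 50% of all 11018 retained genes, dashed lines mark 1.5-fold, and ST3GAL4 at 1.27 and FUT4 at 0.72 are the members beyond them.

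Summed over all 88 members the FPKM was 279 in EtOH and 323 in R5020, a ratio of 1.16. The net difference of 44.0 FPKM was made of 62.8 FPKM over the members that were higher in R5020 and -18.8 over those that were lower. The 5 largest increases in FPKM, those of B4GALT1, ST3GAL4, GALNT1, ST6GALNAC2 and MGAT2, came to 44.9 of the 62.8. The other 83 members, with increases of 17.9 and the same decreases of -18.8, summed to 199 in EtOH and 198 in R5020. The sum for the 20 sialyltransferase genes went from 47.9 to 67.6 FPKM, from 17.1% to 20.9% of the total. Without ST3GAL4 the sialyltransferase sum was 41.3 in EtOH and 50.3 in R5020.

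**Figure D2:**
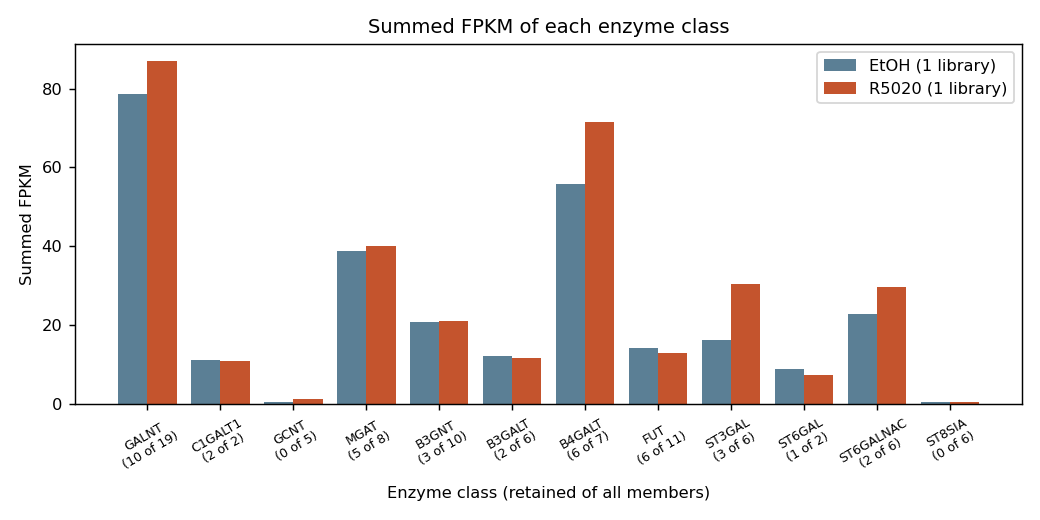
Summed FPKM of each of the 12 enzyme classes in EtOH (blue) and R5020 (orange), 1 library each and so without error bars; the x axis gives the retained members of all members in each class. The ST3GAL sum went from 16.0 to 30.4, the B4GALT sum from 55.6 to 71.4 and the ST6GALNAC sum from 22.6 to 29.7. The GALNT sum went from 78.6 to 87.0, and most of the remaining classes had bars of nearly equal height.

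ST3GAL4 had the largest change among the retained members on the log2(FPKM + 1) scale, while FUT4 had the larger ratio of FPKM, from a lower level. It encodes a sialyltransferase that caps galactose at the ends of lactosamine chains on N-glycans, O-glycans and glycolipids, and takes part in making sialyl Lewis structures. The gene lies on the plus strand of chromosome 11 at chr11:126225540-126284536 (hg19). Its FPKM was 6.60 in EtOH and 17.3 in R5020, which is a ratio of 2.62 and, on the log2 scale, a change of 1.27. The coverage behind these values corresponded to 1073 and 2672 reads, and its rank among all genes went from 4465 to 1784. With this change ST3GAL4 replaced ST3GAL1 as the most abundant ST3GAL gene by FPKM, at 57.0% of the class sum in R5020.

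The difference lay mostly in the transcript variant from the downstream start. NM_001254758, which starts at position 126273311, had an FPKM of 5.00 in EtOH (Cufflinks interval 4.40 to 5.58) and 14.6 in R5020 (13.5 to 15.7). NM_001254757, which starts at position 126225540, had 1.61 (1.23 to 1.99) and 2.72 (2.21 to 3.24). The intervals of each variant did not overlap between the libraries, although they cover the uncertainty of the estimate and not the spread between cultures. The downstream variant made up 75.7% of the ST3GAL4 sum in EtOH and 84.3% in R5020. The variants NM_006278 and NM_001254759 were listed at 0 in both libraries.

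PR binding was mapped at 8 sites within 50 kb of ST3GAL4. Scores are the MACS score, which is 10 times the negative log10 of the p-value, and over all 11181 sites they ran from 50 to 1965 with a median of 74.5. The highest of the 8, with a score of 120.58, lay in an intron with its midpoint 3.06 kb downstream of the upstream start. The next, at 113.02, lay in the same region 1.23 kb downstream of that start. The third, at 78.46, had its midpoint in an intron 4.29 kb downstream of the start of NM_001254758, and a site of 59.16 followed at 4.89 kb over a coding exon. The other 4 sites lay outside the RefSeq extent of the gene, 1 upstream within DCPS and 3 downstream within KIRREL3, with scores of 58.4 to 72.0. No site had its midpoint within 1 kb of either expressed start, although the near edge of the site of 113.02 did lie within it.

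**Figure D3:**
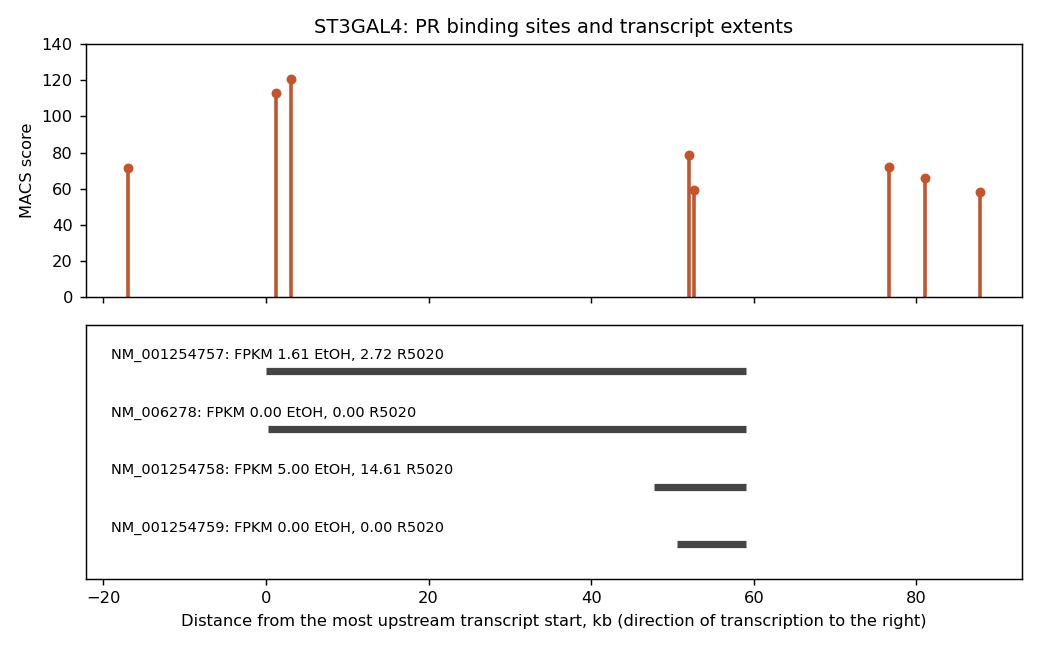
PR binding sites near ST3GAL4 (upper panel, MACS score of each site at its midpoint) and the extents of its 4 RefSeq transcripts with their FPKM in 1 EtOH and 1 R5020 library (lower panel); the x axis is the distance in kb from the most upstream start. The sites with the highest scores, 113.02 and 120.58, lie just inside the long variants, and 78.46 and 59.16 lie inside the short variant NM_001254758, which had most of the FPKM.

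The 300 bases around the midpoints of the 3 sites of highest score near a called member, all at ST3GAL4, are given to show what the bound regions hold. They are read from hg19 on the plus strand, 5′ to 3′, and capitals mark a match to the hormone receptor half-site TGTNCT on either strand.
ST3GAL4 site of score 120.58, chr11:126228454-126228753: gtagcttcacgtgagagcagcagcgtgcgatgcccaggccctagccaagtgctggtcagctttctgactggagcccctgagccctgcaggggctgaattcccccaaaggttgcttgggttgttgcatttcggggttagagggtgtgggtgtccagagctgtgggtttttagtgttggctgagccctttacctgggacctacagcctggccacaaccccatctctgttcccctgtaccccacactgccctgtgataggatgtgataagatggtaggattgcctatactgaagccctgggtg
ST3GAL4 site of score 113.02, chr11:126226620-126226919: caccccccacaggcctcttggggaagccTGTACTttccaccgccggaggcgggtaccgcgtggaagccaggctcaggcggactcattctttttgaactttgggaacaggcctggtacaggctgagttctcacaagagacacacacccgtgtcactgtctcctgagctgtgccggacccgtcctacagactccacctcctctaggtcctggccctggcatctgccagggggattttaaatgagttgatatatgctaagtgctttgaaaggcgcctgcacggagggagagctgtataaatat
ST3GAL4 site of score 78.46, chr11:126277449-126277748: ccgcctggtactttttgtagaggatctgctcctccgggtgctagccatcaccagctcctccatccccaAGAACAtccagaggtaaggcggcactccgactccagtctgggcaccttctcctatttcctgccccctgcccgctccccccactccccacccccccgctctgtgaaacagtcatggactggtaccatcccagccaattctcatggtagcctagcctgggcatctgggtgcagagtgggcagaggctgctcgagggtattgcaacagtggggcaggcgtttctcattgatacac
The window of the strongest of these held no half-site, and the other 2 held 1 each. None of the 8 windows at ST3GAL4 held the palindromic element, spelled GNACA, any 3 bases, then TGTNC. Its right-hand part overlaps the half-site, so an element can hold a half-site too. In 300-base windows the palindromic element was found at 1.89% of all 11178 sites on standard chromosomes and at 0.483% of windows 5 kb downstream of them, while the half-site was found in 52.5% and 51.2%. A half-site is therefore about as frequent beside the sites as in them, and these letters are a description of the windows only.

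FUT4 was the other called member. It encodes a fucosyltransferase that places fucose on lactosamine to form Lewis x, and it lies on the plus strand at chr11:94277017-94283064 (hg19). It stood at 0.541 FPKM in EtOH and 1.53 in R5020 (log2 change 0.72, ratio of FPKM 2.83), with coverage for 243 and 790 reads. The R5020 value lay above its own Cufflinks interval of 1.08 to 1.40, whose midpoint of 1.24 still kept the gene past the threshold. FUT4 had a single transcript, NM_002033, and no PR site within 50 kb, the nearest lying 245 kb away. It passed the FPKM filter only through R5020, where it was high.

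Just below the threshold stood 5 members with log2 fold changes of 0.54 to 0.58, from 1.45-fold to just short of the threshold. GALNT1 was closest, at 13.9 and 21.4 FPKM (0.58), and MGAT2 followed at 10.7 and 16.4 (0.58). B4GALT1 stood at 28.6 and 42.4 (0.56), ST3GAL1 at 7.41 and 11.2 (0.54) and GALNT7 at 3.60 and 5.69 (0.54). Each of these was well covered, from 1431 reads for GALNT7 to 16422 for B4GALT1. With a pseudocount of 0.1 in place of 1 the number called higher was 6, ST3GAL4, FUT4, GALNT1, GALNT7, MGAT2 and ST3GAL1, beside 9.91% of all genes, and FUT2 was then called lower beside 7.14%.

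**Figure D4:**
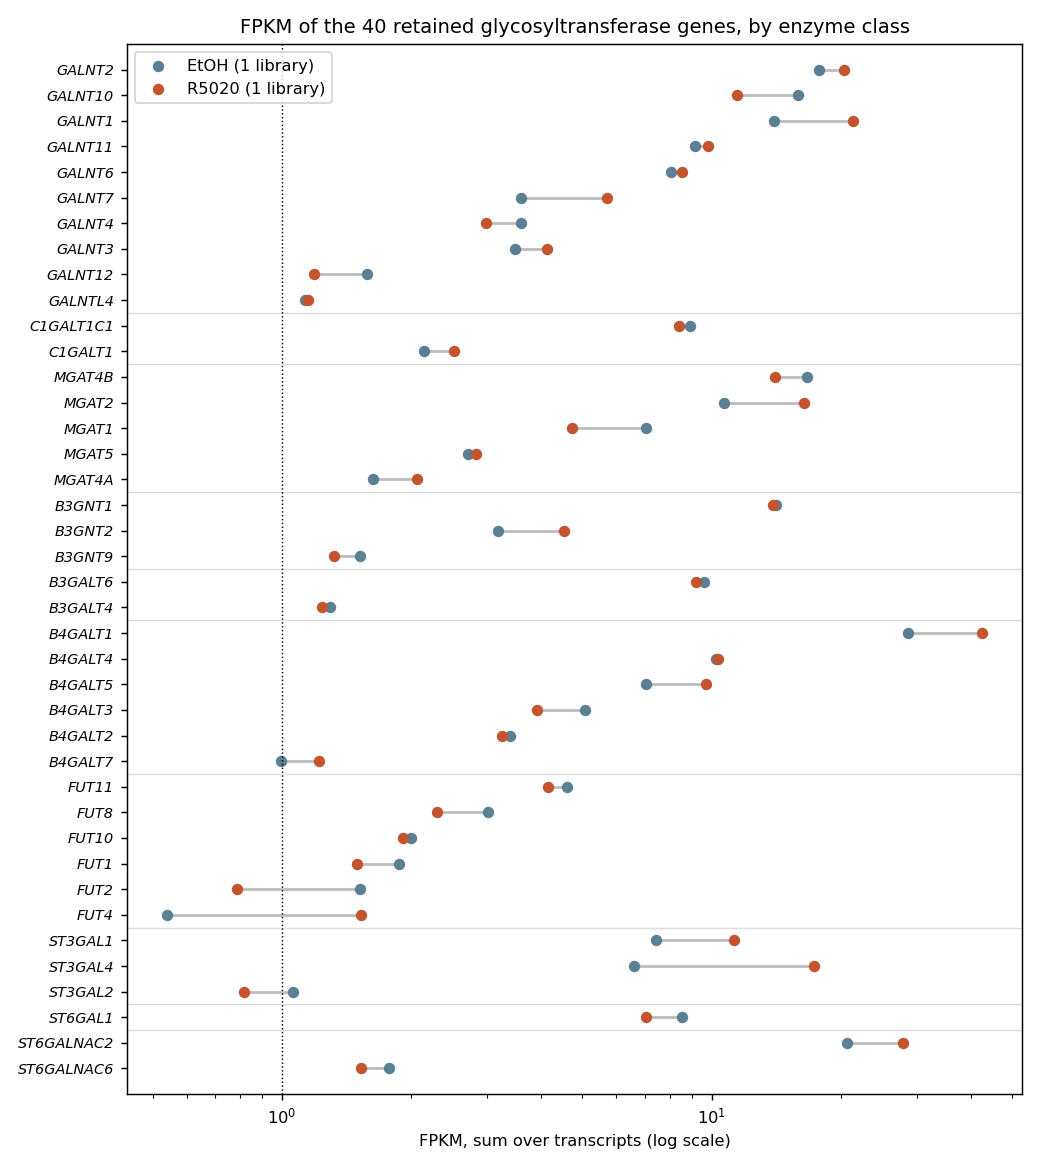
FPKM of the 40 retained members in EtOH (blue) and R5020 (orange), 1 library each, on a log scale, grouped by enzyme class; the dotted line marks an FPKM of 1. ST3GAL4 (6.60 to 17.3) and FUT4 (0.541 to 1.53) have the longest connecting lines, and B4GALT1 has the highest deposited FPKM in both libraries. The B4GALT1 values lay above their Cufflinks intervals, whose midpoints were below those of GALNT1 (19.82 against 19.86 in EtOH, 29.0 against 30.2 in R5020).

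The GALNT genes, which encode the polypeptide N-acetylgalactosaminyltransferases that start mucin-type O-glycans, were the most abundant class, with a summed FPKM of 78.6 in EtOH and 87.0 in R5020. Of 19 genes 10 were retained and none was called. GALNT2 led in EtOH with 17.8 FPKM (20.3 in R5020), and GALNT1 led in R5020. By the midpoints of the Cufflinks intervals GALNT1 led in EtOH too, at 19.9 against 14.2 for GALNT2. GALNT10 had the lowest log2 value of the retained GALNT genes, at 15.9 and 11.4 FPKM (-0.44). The sum was thus made of members that moved apart, GALNT1 and GALNT7 upwards and GALNT10 downwards. GALNT11 stood at 9.13 and 9.82, GALNT6 at 8.05 and 8.54, and GALNT3 at 3.49 and 4.14. GALNT4 stood at 3.59 and 2.98 FPKM, and its exon is shared with the read-through gene POC1B-GALNT4, so its reads are not certain to be its own. GALNT12 (1.58 and 1.19) and GALNTL4 (1.13 and 1.15, now named GALNT18) were near the filter.

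The next step in O-glycan synthesis was level between the libraries. C1GALT1, which adds galactose to make core 1, stood at 2.14 and 2.52 FPKM, and C1GALT1C1, the chaperone it needs, at 8.90 and 8.40. The GCNT genes, which branch core 1 into core 2 or make the I branch, were all below the filter, with a summed FPKM of 0.436 in EtOH and 1.11 in R5020. Within that class GCNT4 stood at 0.013 FPKM (4.49 reads) in EtOH and 0.525 (164 reads) in R5020, a log2 value of 0.59 that would have been called without the filter. GCNT3 stood at 0.030 and 0.154 FPKM, from 6.65 and 31.5 reads.

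The MGAT genes, which build the antennae of N-glycans from N-acetylglucosamine, summed to 38.8 FPKM in EtOH and 40.1 in R5020. This near balance was made by members on opposite sides. MGAT1, which commits a glycan to hybrid and complex forms, stood at 7.03 and 4.74 FPKM (-0.49). MGAT2, which starts the next antenna, stood at 10.7 and 16.4 (0.58). MGAT4B, which adds a further branch, was the most abundant in EtOH at 16.6 and stood at 14.0 in R5020 (-0.23), and its relative MGAT4A stood at 1.63 and 2.06. MGAT5, another branching enzyme, was level at 2.71 and 2.82. MGAT3, which adds the bisecting sugar, stayed at or under 0.032 FPKM.

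The galactosyltransferases of the B4GALT class had summed values of 55.6 FPKM in EtOH and 71.4 in R5020 (log2 ratio 0.36). B4GALT1, which makes lactosamine and with alpha-lactalbumin makes lactose in the mammary gland, gave 51.3% of this sum in EtOH and 59.4% in R5020. B4GALT5, which can make lactosylceramide, stood at 7.02 and 9.67 (0.41). B4GALT3 went the other way, at 5.08 and 3.91 (-0.31). B4GALT4 (10.2 and 10.3) and B4GALT2 (3.39 and 3.24) were level, and B4GALT7, which acts on the linker of proteoglycans, stood at 0.997 and 1.22. The direction of B4GALT4 depended on the measure, being below 0 for its highest transcript alone and for depth from the coverage.

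The B3GALT and B3GNT classes were level as sums, at 12.1 and 11.5 FPKM and at 20.7 and 20.9. B3GALT6, the other galactosyltransferase of the proteoglycan linker, held most of the first at 9.57 and 9.20 FPKM. B3GALT4, a ganglioside enzyme, stood at 1.29 and 1.24. B3GNT1, which is now named B4GAT1 and acts on alpha-dystroglycan, held most of the second at 14.1 and 13.9. B3GNT2, which extends polylactosamine, was the B3GNT gene with the largest change, at 3.19 and 4.52 (0.40). B3GNT9 stood at 1.52 and 1.32.

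The fucosyltransferases summed to 14.2 FPKM in EtOH and 12.7 in R5020, and FUT4 was the only 1 of the 6 retained members with a log2 value above 0. FUT8, which adds the core fucose of N-glycans, stood at 3.01 and 2.29 (-0.28), all of it on the noncoding variant NR_038170, with the other 4 variants at 0. FUT2, which makes the H antigen of secretions, stood at 1.52 and 0.787 (-0.49), the lowest value among all retained members. That difference came from NM_000511, at 0.808 and 0, while NM_001097638 stood at 0.710 and 0.787. These variants have nearly the same length and share their start, so their split by Cufflinks is uncertain. FUT2 passed the FPKM filter only through EtOH, where it was high. FUT1, which makes the H antigen on red cells, stood at 1.87 and 1.5. FUT11 (4.60 and 4.17) and FUT10 (2.0 and 1.91), now named POFUT4 and POFUT3, were closer to level.

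Among the sialyltransferases other than ST3GAL4, ST3GAL1 and ST6GALNAC2 had the higher values in R5020. ST3GAL1, which caps core 1 and so ends O-glycan growth, stood at 7.41 and 11.2 FPKM. Its variant NM_003033 was past the threshold, at 1.57 and 3.29 (0.74), and NM_173344 stood at 5.85 and 7.95 (0.39). These 2 variants share their start and are close in length, so their split by Cufflinks is uncertain. ST6GALNAC2, which sialylates the inner sugar of O-glycans, was the most abundant sialyltransferase gene in both libraries, at 20.7 and 27.9 (0.41). ST6GAL1, the main enzyme that sialylates N-glycans in the other linkage, stood lower in R5020, at 8.53 and 7.02 (-0.25). Its variants differed in direction, with NM_003032 at 2.31 and 2.87 and NM_173217 at 3.12 and 1.85. ST3GAL2 (1.06 and 0.814) and ST6GALNAC6 (1.77 and 1.53) were near the filter.

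The remaining sialyltransferases were scarce. ST3GAL5, which makes the ganglioside GM3, stood at 0.313 and 0.471 FPKM, ST3GAL3 at 0.529 and 0.489, and ST3GAL6 at 0.126 and 0.048. The 6 ST8SIA genes, which join sialic acid to sialic acid, summed to 0.491 and 0.431. ST6GALNAC1, which makes the sialyl Tn antigen, stood at 0.014 FPKM (3.56 reads) in EtOH and 0.132 (29.7 reads) in R5020.

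At the level of transcripts 47 of the 153 member transcripts were retained, and 4 of them (8.51%) were higher and 1 (2.13%) lower, against 11.3% and 8.34% of all 13625 retained transcripts. The 4 higher transcripts were NM_001254758 of ST3GAL4, NM_002033 of FUT4, NM_003033 of ST3GAL1 and NM_212543 of B4GALT4. The last was listed at 0 in EtOH and stood at 1.05 in R5020. This B4GALT4 variant thus passed the filter only through R5020, where it was high. It shares its start with NM_003778 and is close to it in length, so this split by Cufflinks is uncertain too. The lower transcript was MGAT1 NM_001114619, at 2.75 in EtOH and listed at 0 in R5020, so it passed only through EtOH. MGAT1 NM_002406 stood the other way, at 1.93 and 2.64, so the shares of the MGAT1 variants differed more than the gene did. For 18 of the 47 transcripts in EtOH and 19 in R5020 the deposited FPKM lay outside its own Cufflinks interval. Many of these were the only transcript of their gene, so this bears on gene values, class sums and rankings as well as on variants. In EtOH, B3GALT6 stood at 9.57 (interval 2.48 to 3.18), B4GALT1 at 28.6 (19.0 to 20.6) and GALNT1 at 13.9 (19.0 to 20.8).

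PR sites were found within 50 kb of 25 of the 40 retained members, or 62.5% (95% Wilson interval 47.0% to 75.8%), against 52.7% of all 11018 retained genes. With the genes standardised to the lengths of the members the background was 53.3%, so the share was within counting error of it. A site overlapped 10 members (25.0%, against 22.5% of all genes), and 16 (40.0%, against 33.0%) had 1 within 10 kb. Of the 76 pairs of a site and a retained member, the member was the nearest protein-coding gene start in 38. The same count was not made over all genes. Of all genes called higher 61.4% had a site within 50 kb, of those called lower 61.0%, and of the rest 51.5%.

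Members with the larger values in R5020 were found both with and without a site nearby. The median log2 value was -0.12 for the 25 members with a site and 0.16 for the 15 without, while over all genes the medians were -0.01 and 0.02. Of the 7 members with a log2 value of 0.54 or more, ST3GAL4, ST3GAL1 and MGAT2 had sites within 50 kb. FUT4, GALNT1, GALNT7 and B4GALT1 had none, with nearest sites at 245, 277, 262 and 53.9 kb. Conversely GALNT10, at -0.44, had 6 sites, 1 of them 0.50 kb upstream of its start with a score of 112.57.

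Sites with their midpoint within 1 kb of the start of a retained transcript were found for 6 members. The share over all retained genes was not computed for this window, so the count describes these members only. These were FUT8, GALNT10, ST3GAL1, ST3GAL2, ST6GALNAC2 and ST6GALNAC6. ST6GALNAC2 had 8 sites within 50 kb, 3 of them between 0.24 kb upstream and 0.82 kb downstream of its start, with scores of 71.8 to 81.2. ST3GAL1 had a site of 87.23 at 0.27 kb downstream of its start and another of 99.83 at 1.31 kb. FUT8 had a site of 64.91 lying 0.51 kb upstream of the start of NR_038170, and ST3GAL2 had 1 of 83.62 lying 0.22 kb upstream. Of these 6 members, ST3GAL1 and ST6GALNAC2 stood higher in R5020 and FUT8, GALNT10, ST3GAL2 and ST6GALNAC6 stood lower, none of them past 1.5-fold.

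**Figure D5:**
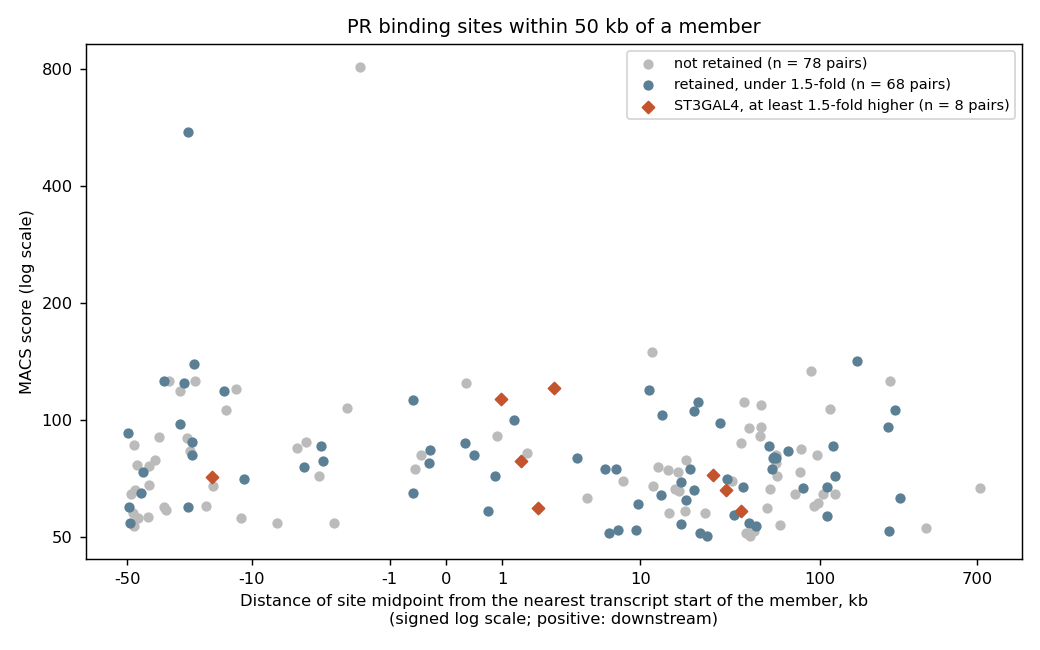
MACS score (log scale) of each PR site within 50 kb of a member against the distance of its midpoint from the nearest transcript start of that member, variants listed at 0 included (signed log scale in kb, positive downstream); each point is a pair of a site and a member from 1 ChIP-seq library. The 8 pairs of ST3GAL4 (diamonds) have scores of 58.4 to 120.58, within the range of the other members, and the highest point, at 805.32, is the site upstream of ST6GALNAC1.

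The strongest PR site near any member stood by a gene that was hardly expressed. It lay 1.89 kb upstream of the start of ST6GALNAC1, in sequence with no annotated gene, with a score of 805.32, rank 15 of 11181. Its 300-base window is given, chosen after its score was seen, from hg19 on the plus strand with capitals for the palindromic element and for a half-site.
ST6GALNAC1 upstream site, chr17:74641635-74641934: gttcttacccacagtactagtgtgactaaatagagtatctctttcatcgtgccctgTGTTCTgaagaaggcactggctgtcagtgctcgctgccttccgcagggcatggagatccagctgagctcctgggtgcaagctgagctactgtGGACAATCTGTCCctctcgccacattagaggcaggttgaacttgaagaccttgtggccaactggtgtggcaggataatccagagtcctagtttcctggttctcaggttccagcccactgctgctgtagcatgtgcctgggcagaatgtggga
The element began at base 149 of the window, counted from 1 at its 5′ end, and the half-site stood apart from it. The palindromic element was present in 3 of the 141 windows at sites near members (2.13%), against 1.89% of all sites and 4.83% of those with a score of at least 100. The other 2 windows belonged to a site upstream of B3GNT1 (97.46) and a site at B3GNT8 (71.45). The next strongest site was 22.8 kb from B3GNT9, with a score of 547.85, and the nearest gene start to it was that of NOL3.

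Genes that supply and modify the same glycans were taken from 8 lists of the pathway, of which 75 of 117 genes were retained. Of these 5 (6.67%) were higher and 1 (1.33%) was lower, beside 7.67% and 4.14% of all retained genes, and their median log2 value was -0.03. The share called higher was near the background, so the called genes below are a description of these lists only. The 22 retained genes of sugar nucleotide supply, the 15 exoglycosidases, the 4 mucins and the 3 galectins had no called gene. MUC1, the main mucin of breast epithelium, stood at 551 and 519.6 FPKM. MAN1A1, a mannosidase that trims N-glycans ahead of the MGAT enzymes, had the largest change, at 1.88 and 13.1 FPKM (2.30), and was the only called gene of 9 trimming enzymes. SLC35A3, which carries UDP-N-acetylglucosamine into the Golgi, stood at 8.22 and 13.1 (0.62) and was the only 1 of 7 transporters called. Of the 13 other glycosyltransferases, UGCG, which makes the first glycosphingolipid, stood at 12.9 and 30.5 (1.18), and B3GALNT2, an enzyme of alpha-dystroglycan glycans, at 7.99 and 16.9 (0.99). Both retained sulfotransferases were called, CHST10 higher at 1.02 and 3.15 (1.04) and CHST1 lower at 1.76 and 0.636 (-0.76).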

How the data were processed

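RNA was measured in 1 R5020 and 1 EtOH library and PR binding in 1 ChIP-seq library of T47D cells. The authors mapped the 50-nt paired reads onto hg19 using TopHat, kept reads of a single position and estimated abundances with Cufflinks 1.2.1. The files deposited by the authors list, per RefSeq transcript, its FPKM beside an interval, a status and a coverage signal. The methods of the study name an Ensembl annotation, while the deposited transcripts carry RefSeq identifiers. ChIP-seq reads were aligned by the authors with Bowtie 1.1.2 and sites called with MACS against input DNA, and each site was deposited with a score of at least 50. The FPKM has library size and length divided out, so no test for counts was used.

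Transcripts were joined by identifier and summed by symbol. A pseudocount of 1, a retention limit of FPKM 1 and a threshold of 1.5-fold were used. Reads were expressed as the deposited coverage times length over the 50-nt read length, over transcripts with an OK status. Sites were tied to a gene when their nearest edge lay within 50 kb of any of its transcripts. Site annotation came from GENCODE 44 lifted to GRCh37, the assembly of hg19, whose sequence was read for the 300-base windows. Symbols were matched to RefSeq for 86 of 88 members. Every retained member is named with its values, those called get transcripts, depth and sites in full, and the 3 sites of highest score near called members get sequence. The members, classes and lists were chosen with earlier results of these data known. The calling step was tested on simulated FPKM of well-expressed genes with changes far past the threshold. Genes of low FPKM, changes near the threshold and the site steps were not covered. With 1 library per condition there is no p-value and no estimate of the spread between cultures. Alternatives were other pseudocounts, filters, thresholds, distances, scores and scalings, with the interval midpoint and the depth from coverage added after seeing the data. The intervals of shares are Wilson intervals for counting error only. Scripts ran in Python 3.11.15 with matplotlib 3.10.9, pysam 0.24.0, pandas 2.3.3 and numpy 2.4.6.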

Additional observations from a re-analysis of the deposited data

How the results depend on the processing

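No replicate could be left out with 1 library per condition. Medians and class sums with values near 0 changed sign in 4 cases. The members' median log2 fold change of -0.0046 was 0.0756 with an FPKM limit of 2 and 0.0005 with the midpoints of the Cufflinks intervals. With depth from the coverage the log2 ratio of the MGAT sum was -0.04, against 0.05, and that of the B3GNT sum -0.07, against 0.02. The number of members called higher was 2, and was 6 with a pseudocount of 0.1, 1 with an FPKM limit of 2 (ST3GAL4) and 1 at 2-fold (ST3GAL4). The number called lower was 0, and was 1 with a pseudocount of 0.1 (FUT2) and 2 with depth from the coverage (FUT2 and MGAT1), an alternative chosen after seeing the data. Without the FPKM filter 3 members were higher, GCNT4 being added, and 44 of 88 members had a PR site within 50 kb. The shares over all genes were not computed for the FPKM limit of 2, the 2-fold threshold or the unfiltered setting. The counts under these settings therefore have no background beside them. The number of retained members with a site was 25, and was 10 (25.0%, against 22.5% of all retained genes) for overlap with the gene, 16 (40.0%, against 33.0%) within 10 kb and 10 (25.0%, against 18.1%) for scores of at least 100, each a stricter rule by construction. The log2 ratio of the GCNT sum was 1.36, and 1.46 with the highest transcript of each gene, and that of the ST6GAL sum was -0.29, and -0.15. With depth from the coverage the log2 ratio was 0.26 for B4GALT, against 0.36, and 0.29 for ST6GALNAC, against 0.39, and the median over all genes then shifted by -0.08. The cause of these differences was not tested. The 3 uncalled members with values near 0 that changed sign were B4GALT4 with the highest transcript, and B4GALT4, GALNTL4 and MGAT5 with depth from the coverage. Rescaling R5020 to a median log2 ratio of 0, a factor of 0.992, and the midpoints of the Cufflinks intervals called ST3GAL4 and FUT4 as before. Depth limits members with few reads, such as GCNT4 and ST6GALNAC1.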
